A study of Mus musculus with 63 samples.

Results

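The genes described here carry out or control the synthesis of cholesterol and fatty acids in mouse keratinocytes, the epithelial cells of the epidermis. They were chosen by name from the pathway: the enzymes of the mevalonate and sterol pathway, the enzymes that make, elongate and desaturate fatty acids, and a few regulators and carriers of sterols. Of 33 genes listed, 31 had a probe with their symbol, out of 14541 genes named by single-symbol probes in the whole series. Srebf1 and Acat2 were not analysed here. Where a gene had several probes, the probe with most values was used, and 30 of the 31 probes held a value in every sample.

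Primary keratinocytes came from the skin of newborn CD-1 mice that were wild type for the epidermal growth factor receptor (EGFR WT) or lacked it in every cell (EGFR KO). RNA of each culture was hybridised on a 2-colour array beside a universal mouse reference RNA, a pool from 11 mouse cell lines. The 63 arrays formed 13 groups. Ras cells had been transduced with v-rasHa, the viral Ha-ras oncogene, through supernatant of Psi-2 producer cells, and mock cells had not. Ras cells were kept for 4 days after transduction, and all cells given an inhibitor, mock cells included, for 4 days before it. The groups without inhibitor were WT mock (4 samples from 5 arrays), WT ras (5), KO mock (3) and KO ras (5). The groups with inhibitor received AG1478, erlotinib or PD153035, which block the EGFR tyrosine kinase, at 1 µM for 2 hours. They were WT mock with each compound (5 samples each), WT ras with each compound (5 each), and KO ras with AG1478 (6), erlotinib (4) and PD153035 (5). KO mock cells with an inhibitor were not analysed here. The receptor these compounds target was absent from every KO culture. The samples of a group are biological replicates per the series' design text, which does not say whether cultures came from separate animals.

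Cholesterol is made from acetyl-CoA through mevalonate, isoprenoid units and squalene, which is closed into lanosterol and trimmed to cholesterol. Fatty acids are made from the same acetyl-CoA by carboxylation, chain assembly, elongation and desaturation. Both pathways are switched on by the SREBP transcription factors, which leave the endoplasmic reticulum when sterols are scarce and are held there by INSIG proteins when sterols are plentiful. In the epidermis these lipids are needed for new membranes and for the barrier of the cornified layer.

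The promoters of these genes are shown first, as a description of their sequence. SREBP proteins bind sterol regulatory elements next to sites of the factor NF-Y, whose core is CCAAT. RefSeq promoter sequences were given for 23 of the 31 genes, with 26 start sites. The 250 bases before each start were searched on both strands for CCAAT and for TCACNCC, a short form of the sterol regulatory element (the last CC of which may be the first CC of a CCAAT, which no match named here was). CCAAT occurred before 18 of the 26 starts (69.2%), against 33.9% of the 32851 windows of this length in the whole table. TCACNCC occurred before 3 of the 26 starts (11.5%), those of Msmo1, Hmgcs1 and Srebf2, against 13.4% of all windows. The 6 windows below belong to genes that differed between genotypes with PD153035, had 1 start in the table and held CCAAT. Each is written 5′ to 3′ on the gene's strand in build GRCm38.p6 and ends at the base before the start, with both motifs, on either strand, in capitals.
Msmo1, chr8:64733579-64733828, minus strand: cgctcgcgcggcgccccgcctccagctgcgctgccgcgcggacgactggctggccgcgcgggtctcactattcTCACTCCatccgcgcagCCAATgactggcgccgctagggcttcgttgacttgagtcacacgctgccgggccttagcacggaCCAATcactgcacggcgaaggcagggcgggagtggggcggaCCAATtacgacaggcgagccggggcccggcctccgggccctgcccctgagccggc
Idi1, chr13:8885356-8885605, plus strand: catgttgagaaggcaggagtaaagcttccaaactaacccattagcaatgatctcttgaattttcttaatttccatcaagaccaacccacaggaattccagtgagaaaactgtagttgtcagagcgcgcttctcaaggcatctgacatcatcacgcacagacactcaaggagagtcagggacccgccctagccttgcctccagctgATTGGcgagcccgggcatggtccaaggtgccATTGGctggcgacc
Mvd, chr8:122443423-122443672, minus strand: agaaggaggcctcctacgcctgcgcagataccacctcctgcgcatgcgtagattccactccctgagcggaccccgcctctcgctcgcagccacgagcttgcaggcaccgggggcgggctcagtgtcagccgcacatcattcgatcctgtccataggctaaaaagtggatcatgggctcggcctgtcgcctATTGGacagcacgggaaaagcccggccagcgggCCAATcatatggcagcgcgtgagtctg
Cyp51, chr5:4104698-4104947, minus strand: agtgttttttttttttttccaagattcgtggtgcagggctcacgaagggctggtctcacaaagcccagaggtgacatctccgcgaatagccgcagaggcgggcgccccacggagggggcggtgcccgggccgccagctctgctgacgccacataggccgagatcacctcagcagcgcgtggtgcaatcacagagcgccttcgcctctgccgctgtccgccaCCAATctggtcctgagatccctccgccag
Ebp, chrX:8193513-8193762, minus strand: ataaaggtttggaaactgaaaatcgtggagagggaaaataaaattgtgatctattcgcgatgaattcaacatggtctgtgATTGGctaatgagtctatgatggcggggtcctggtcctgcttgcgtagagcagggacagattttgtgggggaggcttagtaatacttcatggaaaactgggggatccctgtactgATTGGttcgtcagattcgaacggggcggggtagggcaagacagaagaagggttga
Insig1, chr5:28071162-28071411, plus strand: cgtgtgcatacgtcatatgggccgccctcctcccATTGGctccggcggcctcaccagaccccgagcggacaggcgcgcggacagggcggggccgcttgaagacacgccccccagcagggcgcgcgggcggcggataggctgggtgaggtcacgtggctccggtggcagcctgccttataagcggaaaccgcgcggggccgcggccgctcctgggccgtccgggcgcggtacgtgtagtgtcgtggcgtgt
Msmo1 held TCACNCC from 177 to 171 bases before its start and CCAAT at 160, 96 and 55 bases before it. Idi1 held CCAAT on the opposite strand at 45 and 14 bases before its start. Ebp held it on the opposite strand at 170 and 55 bases, Cyp51 at 29 bases and Insig1 on the opposite strand at 216 bases. A match is a run of letters and was not tested as a binding site.

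All values are log2 ratios of sample over reference, so a value of 0 equals the reference pool and levels of different genes cannot be ranked against each other. The deposited values are taken as base 2, which no source used here states. Egfr itself did not part the genotypes sample by sample. Its 2 probes read 0.22 to 2.77 and -0.27 to 1.71 over the 23 KO samples, and 0.43 to 3.60 and -0.29 to 3.32 over the 39 WT samples. Their group means were 1.30 to 2.405 and 0.25 to 0.77 in KO, and 1.87 to 2.62 and 0.14 to 1.86 in WT. The lowest mean of the second probe, 0.14, was in WT ras with erlotinib. Its next lowest WT mean was 0.88, in WT ras with AG1478. No source used here places these probes inside or outside the deletion, so they do not check the labels, and each genotype is the labelled one. On all 63 arrays, 23 keratinocyte genes lay above 19 genes of the pooled lines, by 2.41 to 6.46. For 2 arrays of KO ras with AG1478 (replicates 3 and 4) the dye order in the label went against the data, with correlations of -0.83 and 0.81 to the median array, and their sign was taken from the data. Arrays also fell into 8 runs of consecutive experiment numbers, and some groups compared share no run. WT mock and WT ras without inhibitor lay in runs 1 and 2, KO mock in run 4, and KO ras in runs 3, 5 and 6. Both PD153035 ras groups and KO ras with AG1478 lay in run 8, both erlotinib ras groups in runs 5 and 6, and WT ras with AG1478 in runs 7 and 8. Markers of other cells in the ras groups had mean levels of -2.10 to -1.45 for 12 fibroblast genes, -2.25 to -1.48 for 10 leukocyte and Langerhans cell genes and 1.62 to 3.03 for 7 melanocyte genes.

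Most of the genes had their lowest group mean in the same group. KO ras cells with PD153035 had the lowest of the 13 group means for 20 of the 31 genes. How often this group was lowest over all probes was not computed, so this count is a description. WT ras cells with erlotinib had the highest mean for 11 genes and WT ras cells with AG1478 for 9. The mean of the 11 sterol arm genes, which convert squalene precursors to cholesterol, was 0.08 ± 0.13 (SD, n = 5) in KO ras with PD153035. It was 1.13 ± 0.22 (SD, n = 5) in WT ras with PD153035, 0.57 ± 0.31 (SD, n = 5) in KO ras and 0.97 ± 0.19 (SD, n = 5) in WT ras. For these 11 genes the 5 KO samples with PD153035 lay between -0.04 and 0.25 and the 5 WT samples with it between 0.88 and 1.34, with no overlap. The mean of 9 fatty acid genes was -1.03 ± 0.23 (SD, n = 5) in KO ras with PD153035 and 0.07 ± 0.14 (SD, n = 5) in WT ras with PD153035. The range of group means was 0.77 to 3.80 over the 31 genes, widest for Scd2. Group means of Insig1 ran from -0.49 in KO ras with PD153035 to 1.57 in WT ras with erlotinib, and those of Srebf2 from -0.85 in KO ras with PD153035 to 0.29 in WT ras.

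**Figure D1:**
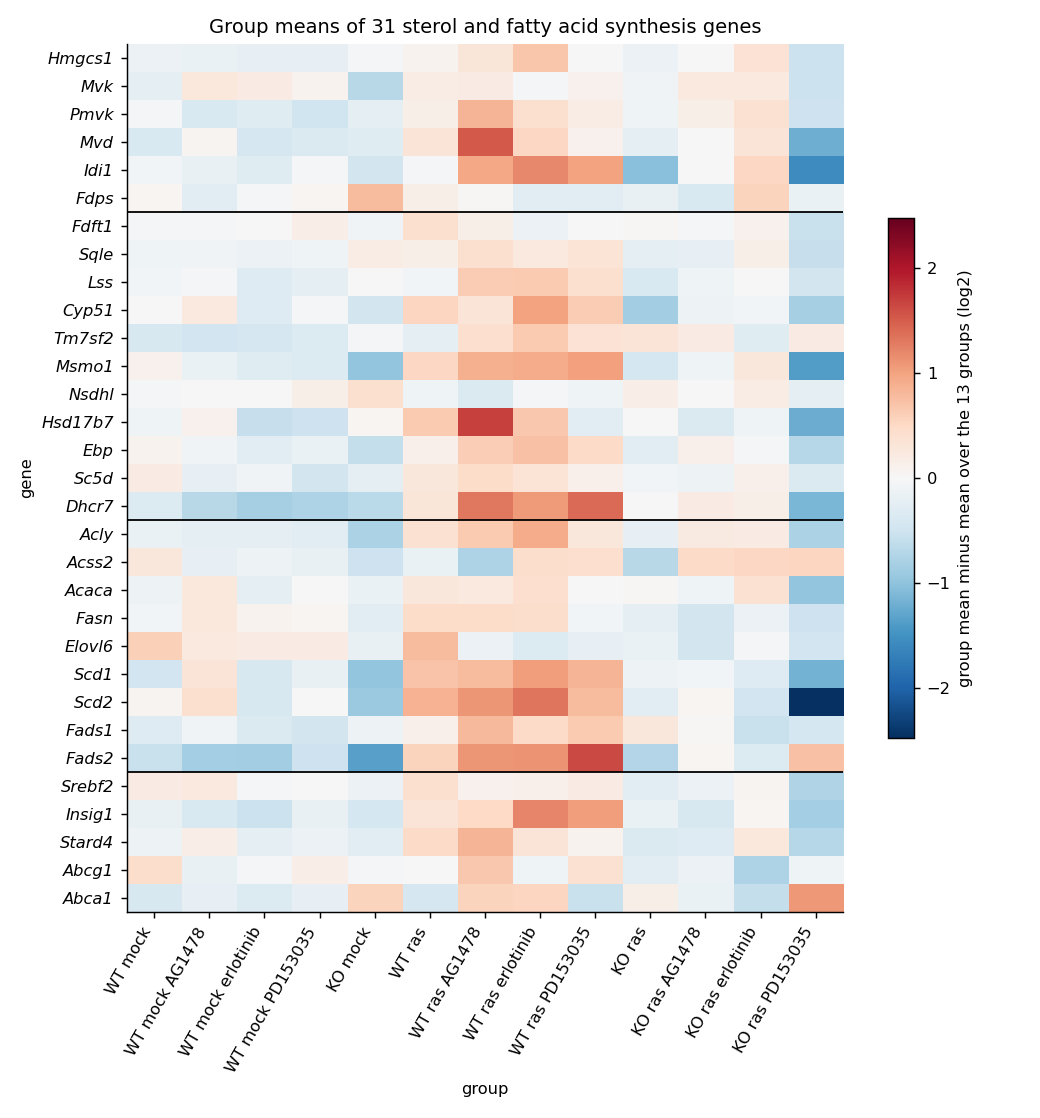
Group means of the 31 genes (rows) in the 13 groups (columns), each gene centred on its mean over the groups, in log2; lines part the mevalonate arm, sterol arm, fatty acid genes, and regulators and transport. The column of KO ras with PD153035 holds the lowest mean for 20 genes.

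**Figure D2:**
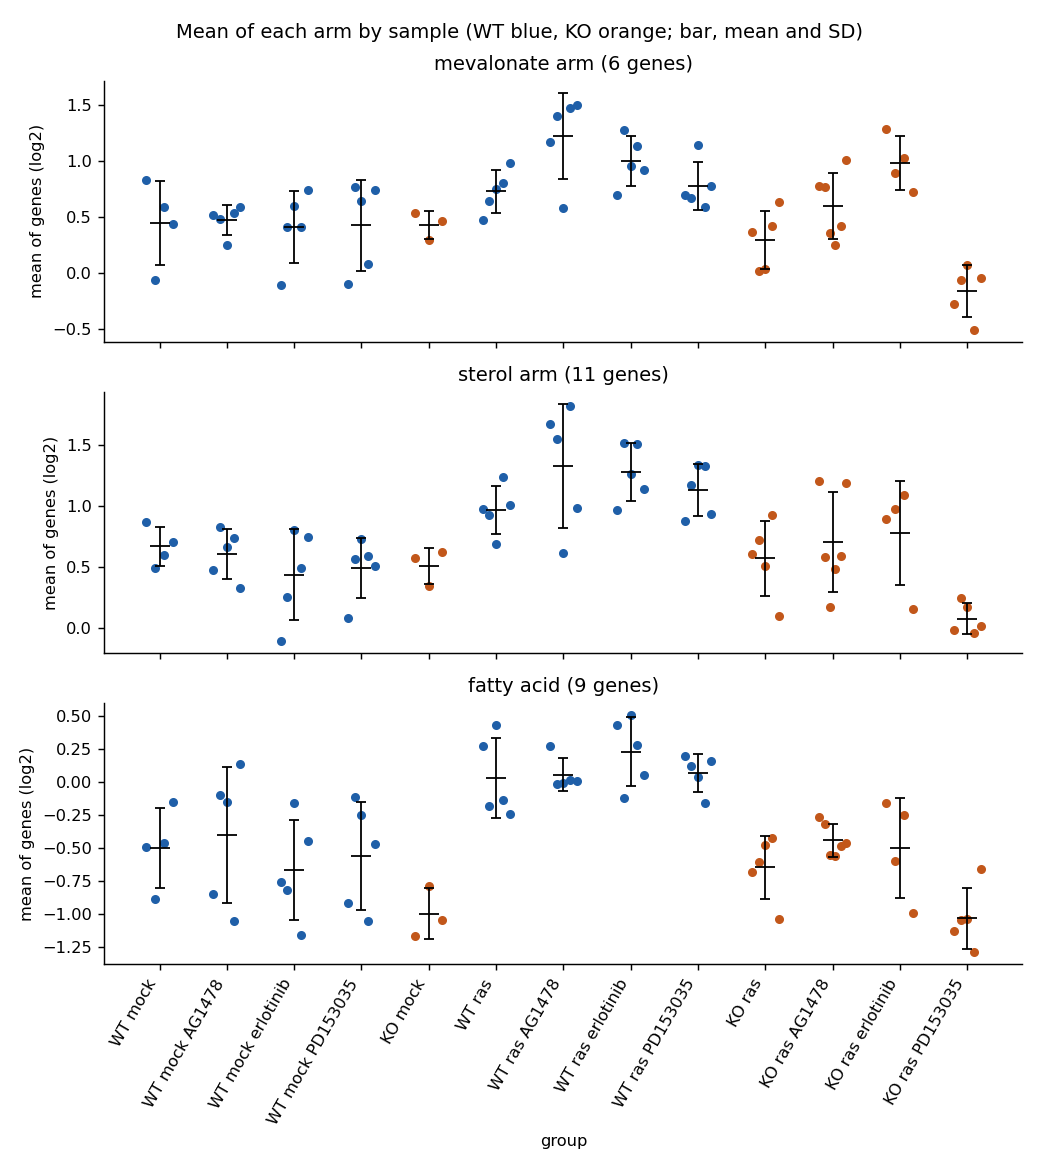
Mean of the genes of each arm in every sample (points; WT blue, KO orange), in log2 of sample over reference, with the group mean and SD as bars. The KO ras samples with PD153035 have the lowest group mean in all 3 panels, though KO mock is nearly as low for the fatty acid genes. In the sterol arm the KO ras samples with PD153035 lie between -0.04 and 0.25.

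The comparison of KO with WT ras cells under PD153035 asks what loss of the receptor changes when its kinase inhibitor is present in both genotypes. Of the 31 genes, 10 were lower and 1 was higher in KO (limma, Benjamini-Hochberg adjusted p under 0.05 over all probes), where 1.38% of the 27934 probes tested passed, 0.848% lower and 0.533% higher. The median difference of the 31 genes was -0.91 and that of all probes -0.01. The values were below 0 for 28 of the 31 genes, and the samples of the genotypes did not overlap for 16, against 5.98% of all probes tested. Both groups lay in run 8. In bulk RNA, fewer expressing cells and less RNA per cell cannot be told apart. The count was 11 to 13 under the other settings run, and 9 to 12 with any 1 sample left out.

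In the mevalonate arm, 2 of 6 genes were lower in KO. Idi1 isomerises isopentenyl diphosphate, the building block of all isoprenoids. Its values were -0.57, 0.32, -0.30, -0.73 and -0.15 in the KO samples and 2.46, 2.68, 2.01, 1.76 and 2.43 in the WT samples. Every KO sample lay below every WT sample, and the difference was -2.56 ± 0.48 (SE), 5.88-fold lower, with a limma adjusted p of 0.000903. Mvd, the decarboxylase that forms isopentenyl diphosphate, read -0.61, -0.82, -0.70, -0.67 and -0.30 in KO against 0.19, 0.57, 1.32, 1.07 and 0.34 in WT. The Mvd groups did not overlap and differed by -1.32 ± 0.30 (SE), with a limma adjusted p of 0.0115. Mvd lost its call without replicate 3 of WT ras with PD153035, at a difference of -1.16 and a limma adjusted p of 0.0616. Hmgcs1, Mvk and Pmvk, the earlier steps, differed by -0.54, -0.64 and -0.71 and did not pass.

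In the sterol arm, all 11 differences were below 0 and 4 passed. Dhcr7, the last reductase of cholesterol synthesis, read 0.10, -0.08, -0.15, 0.08 and 0.30 in KO and 1.21, 2.94, 3.19, 3.24 and 2.31 in WT. The KO samples of Dhcr7 lay close to the reference pool and the lowest WT sample stood apart above them. Dhcr7 differed by -2.53 ± 0.39 (SE), 5.76-fold, with a limma adjusted p of 3.3e-05. Msmo1, the C-4 sterol methyl oxidase, read 0.29, 0.55, 0.61, 0.40 and -0.02 in KO and 2.84, 2.19, 3.30, 2.79 and 2.74 in WT. The Msmo1 groups were well apart, with a difference of -2.40 ± 0.42 (SE) and a limma adjusted p of 0.000431.

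Cyp51, the lanosterol demethylase, read -0.66, -0.16, -0.27, -0.67 and -0.33 in KO and 0.95, 1.61, 0.92, 1.08 and 0.62 in WT. Cyp51 was below the reference in every KO sample and above it in every WT sample. It differed by -1.45 ± 0.29 (SE), with a limma adjusted p of 0.00196. Ebp, the sterol isomerase, had group means of -0.15 ± 0.21 (SD, n = 5) in KO and 1.04 ± 0.11 (SD, n = 5) in WT, without overlap. Its difference was -1.19 ± 0.27 (SE), with a limma adjusted p of 0.00971. Sqle, Lss and Hsd17b7 differed by -0.92, -0.85 and -0.95 and did not pass, with limma adjusted p-values of 0.0994, 0.163 and 0.404.

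In fatty acid synthesis, 3 of 9 genes were lower. Scd2, a stearoyl-CoA desaturase that makes monounsaturated fatty acids, had the largest difference of the 31 genes. It read -2.43, -2.35, -2.59, -2.29 and -1.56 in KO and 1.02, 1.18, 0.82, 0.81 and 1.21 in WT. The next lowest of the 13 group means was -0.69, in KO mock. The difference was -3.25 ± 0.47 (SE), 9.52-fold, with a limma adjusted p of 1.33e-05. Scd1, its close relative, read -4.28, -3.59, -3.75, -4.38 and -2.77 in KO and -1.51, -1.80, -1.80, -2.48 and -1.15 in WT. The Scd1 groups did not overlap, and the difference was -2.01 ± 0.45 (SE), with a limma adjusted p of 0.00981. Probes of Scd1 and Scd2, which are similar in sequence, could share signal, and probe sequences were not used here.

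Acly, which cleaves citrate to supply acetyl-CoA, had means of -0.62 ± 0.45 (SD, n = 5) in KO and 0.45 ± 0.23 (SD, n = 5) in WT. The difference was -1.07 ± 0.27 (SE), with a limma adjusted p of 0.022. Acly lost its call without WT ras PD153035 replicate 2 or any 1 of KO ras PD153035 replicates 1, 2, 3 and 5, with adjusted p-values up to 0.0981 and differences of -1.30 to -0.93 over all samples left out. Acaca, the carboxylase of the committed step, differed by -0.97 with a limma adjusted p of 0.0647, and Fasn, the synthase, by -0.44 with a limma adjusted p of 0.64. Fads1 and Fads2, the desaturases of polyunsaturated fatty acids, differed by -1.09 and -0.91 and did not pass.

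Among regulators and carriers, Insig1 was lower and Abca1 higher. Insig1, the sterol-sensing anchor of SREBP and itself an SREBP target, read 0.12, -0.48, -0.49, -0.91 and -0.68 in KO and 1.73, 1.14, 2.18, 0.39 and 1.53 in WT. Its highest KO sample lay below its lowest WT sample, with a difference of -1.88 ± 0.42 (SE) and a limma adjusted p of 0.00869. Abca1, the transporter that exports cholesterol, read 0.67, 0.22, 0.51, 0.53 and 0.69 in KO and -1.09, -0.93, -1.14, -0.58 and -1.75 in WT. It ran opposite to most of the synthesis genes, at 1.62 ± 0.41 (SE) higher with a limma adjusted p of 0.0255. Abcg1, also among the genes of regulation and transport, did not go with Abca1. Its chosen probe differed by -0.48 (limma adjusted p = 0.71) and its second probe by -1.17 (limma adjusted p = 0.0428). Abca1 lost its call without any 1 of WT ras PD153035 replicates 1, 3 and 4 or KO ras PD153035 replicates 1, 3, 4 and 5, with differences of 1.49 to 1.73 over all samples left out and adjusted p-values up to 0.0755. Srebf2, which encodes the SREBP of sterol synthesis, differed by -0.93 with a limma adjusted p of 0.0601, and its groups did not overlap. The other 8 called genes (Idi1, Dhcr7, Msmo1, Cyp51, Ebp, Scd1, Scd2 and Insig1) kept the call with any 1 of the 10 samples left out and under each other setting run.

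**Figure D3:**
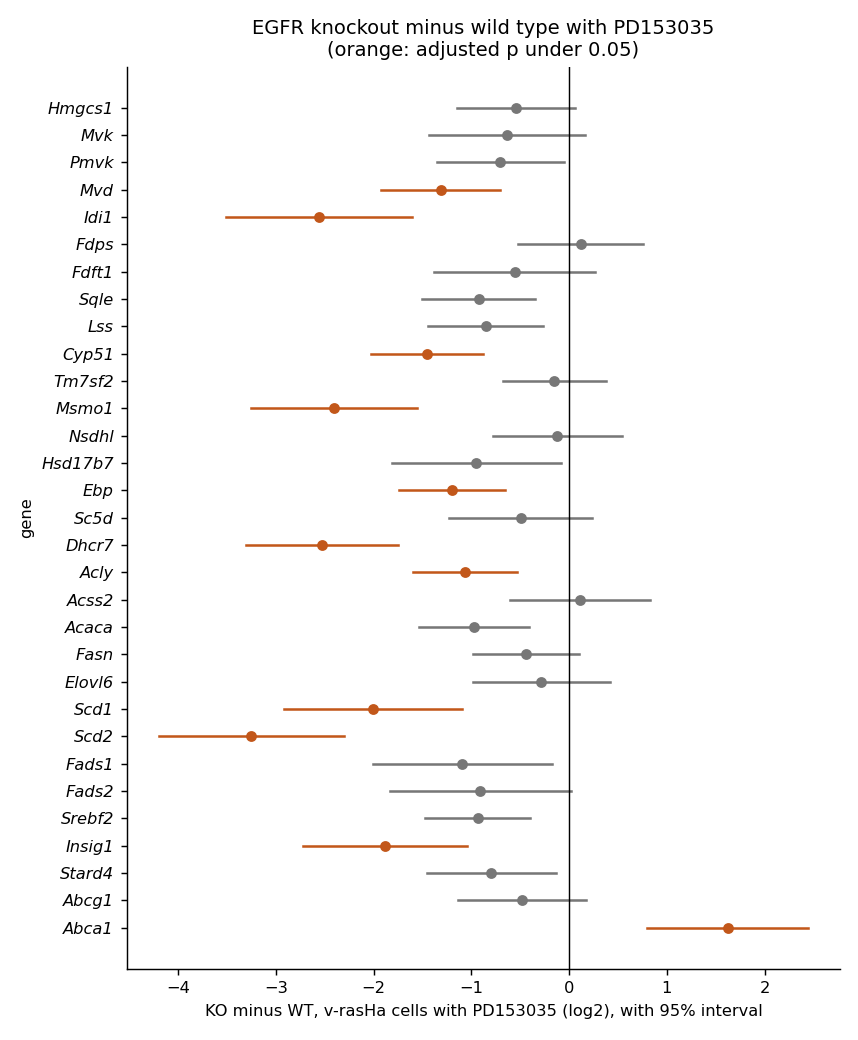
KO minus WT in ras cells with PD153035 for each of the 31 genes (rows), in log2, with its 95% interval; orange marks an adjusted p under 0.05. Scd2 is lowest at -3.25 and Abca1 highest at 1.62.

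**Figure D4:**
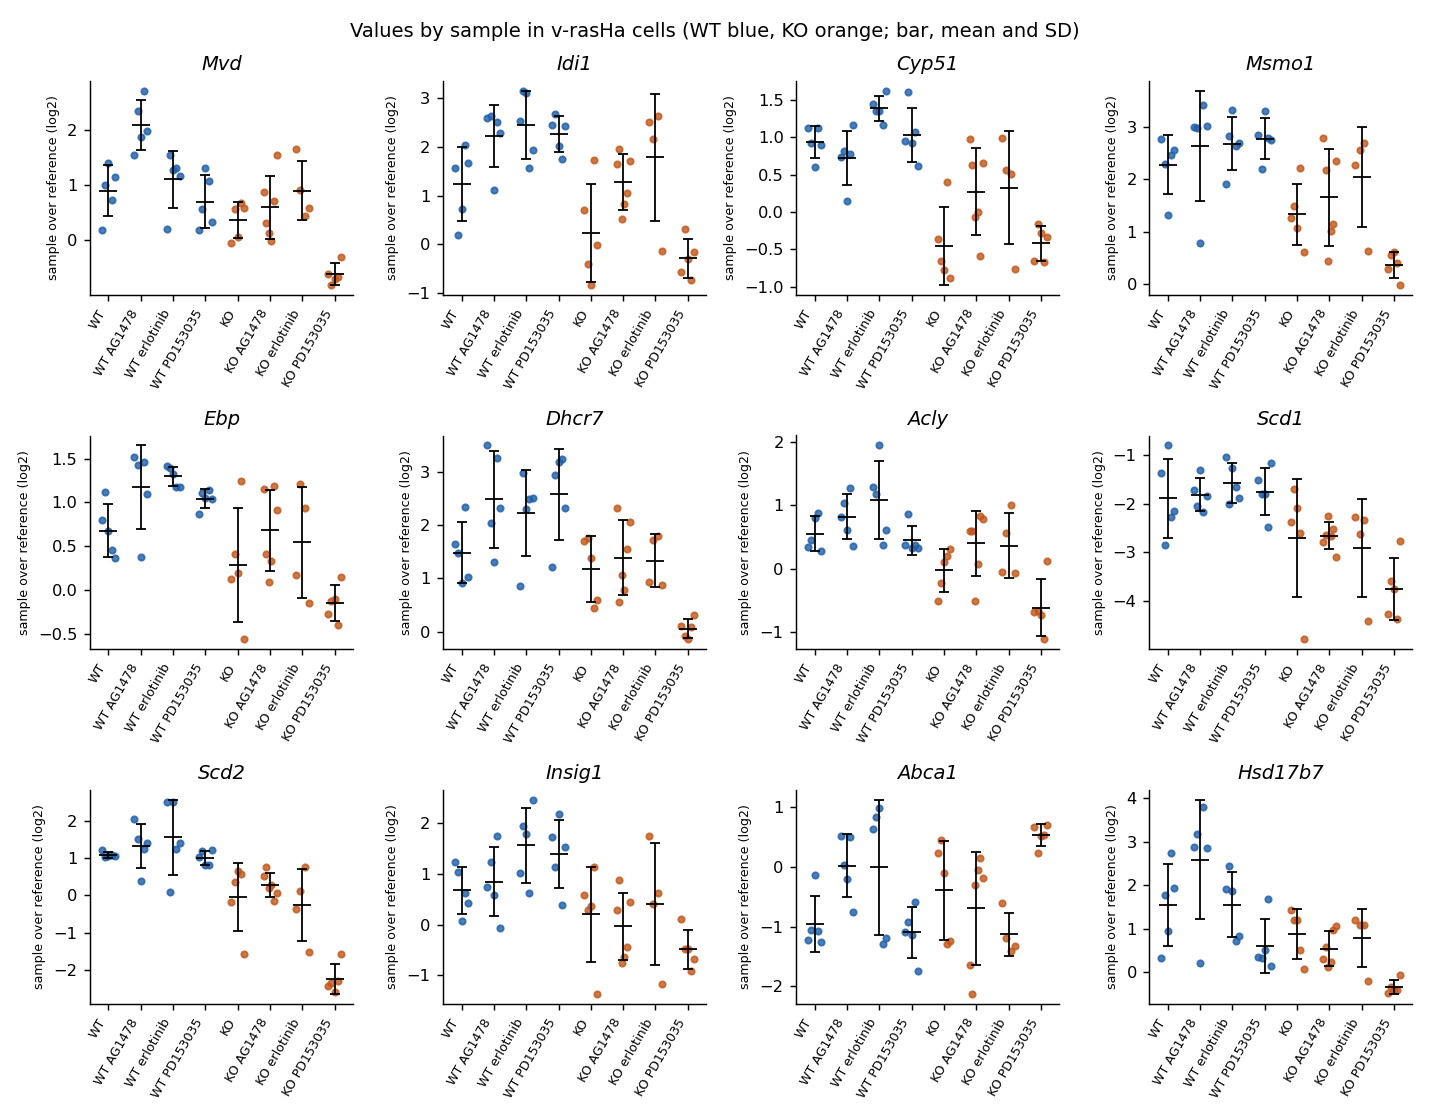
Values of 12 genes in every sample of the 8 ras groups (points; WT blue, KO orange), in log2 of sample over reference, with the mean and SD as bars. In KO with PD153035 the 5 samples of Scd2 lie between -2.59 and -1.56, and those of Abca1 between 0.22 and 0.69.

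In the same comparison no marker list of another cell type held a called gene. The 23 keratinocyte genes had a median of 0.47 with 19 above 0, 12 fibroblast genes -0.42, 7 melanocyte genes 0.02, 7 sebocyte genes -0.05 and 7 adipocyte genes -0.08. The mean level of the adipocyte list ran from -1.91 to -0.78 in the KO samples with PD153035 and from -1.35 to -0.18 in the WT samples. The part of these differences in the result was not tested.

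Several probes of a gene gave a second reading. The 11 genes with more than 1 probe had 14 further probes, of which 11 differed with the same sign as the chosen probe and 6 passed. All 3 Insig1 probes were lower in KO with PD153035 (-1.88, -1.73 and -2.73), as were both Cyp51 probes (-1.45 and -1.18). Probes disagreed for Fdps, which makes farnesyl diphosphate: the chosen probe differed by 0.12 and another by -1.63, with a limma adjusted p of 0.000137. They also disagreed for Nsdhl, a sterol C-4 decarboxylase, at -0.12 for the chosen probe and -1.45 for another (limma adjusted p = 0.0349).

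The 4 comparisons of KO with WT ras cells, without inhibitor and with each compound, share no sample, although all arrays share the reference RNA. The difference was below 0 in all 4 for 21 of the 31 genes (67.7%), against 10.6% of the 27395 probes tested in all 4, and above 0 in all 4 for 0 genes. This count was chosen after the values were seen and is a description. The median of the 31 genes was -0.41 without inhibitor, -0.70 with AG1478, -0.62 with erlotinib and -0.91 with PD153035, where the medians of all probes lay between -0.06 and 0.01. Scd2 differed by -1.12, -1.04, -1.81 and -3.25 in that order, Fads2 by -1.28, -1.05, -1.45 and -0.91, and Cyp51 by -1.39, -0.46, -1.06 and -1.45. Scd2 thus had its largest value with PD153035 and Fads2 its smallest, and the interactions given further on passed for 0 of the 31 genes. Abca1 changed sign between comparisons, at 0.55, -0.72, -1.10 and 1.62.

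**Figure D5:**
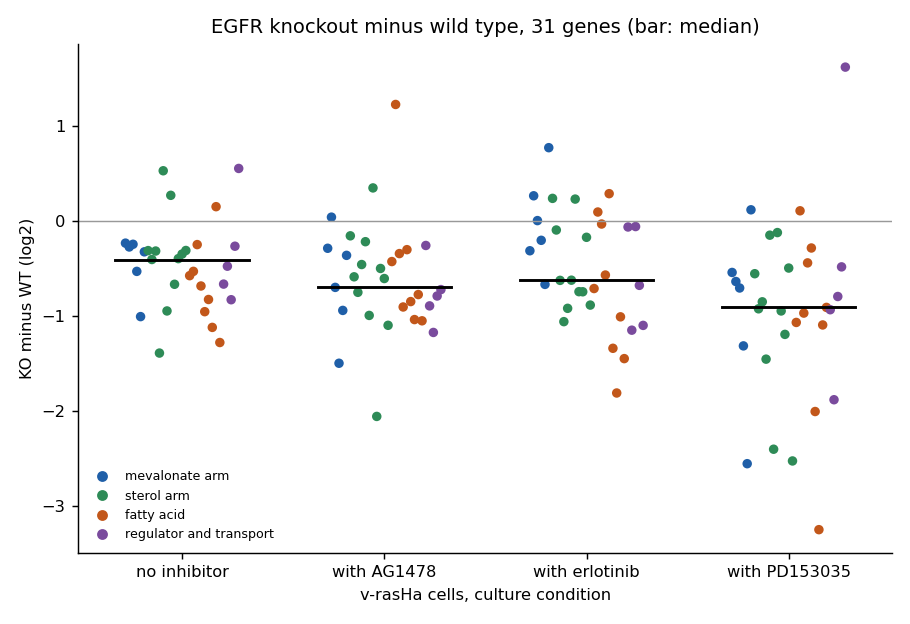
KO minus WT in ras cells for the 31 genes (points, coloured by arm), in log2, in 4 culture conditions that share no sample; bars are medians. The medians are -0.41, -0.70, -0.62 and -0.91 from left to right.

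Without inhibitor, 1 of the 31 genes was lower in KO ras cells, with 1.93% of probes passing and 1.16% lower. Cyp51 read -0.36, -0.66, -0.78, 0.41 and -0.88 in KO ras and 1.12, 0.92, 0.61, 1.13 and 0.90 in WT ras. Every KO sample of Cyp51 lay below every WT sample, and the difference was -1.39 ± 0.29 (SE), with a limma adjusted p of 0.00706. A second Cyp51 probe differed by -1.48, with a limma adjusted p of 0.00512. Among the further probes, Sqle, Fdps and Nsdhl each had 1 that was lower in KO ras. These values were -1.09 (limma adjusted p = 0.0395), -1.08 (limma adjusted p = 0.0253) and -1.63 (limma adjusted p = 0.0367), while their chosen probes read -0.41, -0.32 and 0.27. KO ras and WT ras lay in different runs, so genotype and run cannot be told apart here. The Cyp51 call was lost in a fit of these groups alone, at the same difference of -1.39 with a limma adjusted p of 0.258, and with run as a random block, at -1.28 with one of 0.229.

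With AG1478, 4 of the 31 genes were lower and 1 higher in KO ras, with 2.23% of probes passing, 1.41% lower and 0.818% higher. Hsd17b7, a sterol 3-ketoreductase, read 0.29, 0.58, 0.11, 0.23, 0.96 and 1.05 in KO and 2.89, 3.18, 0.22, 3.79 and 2.85 in WT. A single WT sample lay among the KO values, and the difference was -2.06 ± 0.41 (SE), with a limma adjusted p of 0.0028. Mvd differed by -1.50 ± 0.29 (SE), with a limma adjusted p of 0.0019. Stard4, a sterol carrier protein, differed by -1.17 (limma adjusted p = 0.0297), Fasn by -0.91 (limma adjusted p = 0.0438) and Acss2, the cytosolic acetyl-CoA synthetase, by 1.23 (limma adjusted p = 0.0397). The second Stard4 probe differed by 0.17 (limma adjusted p = 0.876), and averaging its 2 probes gave -0.50 (limma adjusted p = 0.432). Hsd17b7 and Mvd kept the call with any 1 of the 11 samples left out. Both lost it in a fit of these groups alone (limma adjusted p = 0.0855 and 0.0507) and with run as a fixed block (0.378, at a difference of -0.92, and 0.064), and Hsd17b7 also with run as a random block (0.0584). Stard4 lost its call in 5 of 12 other settings, Fasn in 6 and Acss2 in 5. Stard4 lost it without WT ras AG1478 replicates 1, 2 or 5 or KO ras AG1478 replicates 1, 3 or 5, and Fasn without these WT samples or any KO sample but replicate 2. Acss2 lost it without any 1 sample but WT ras AG1478 replicate 5, its second probe differed by -1.49 (limma adjusted p = 0.181), and averaging its 2 probes gave 0.13. Within run 8, which held 6 KO and 2 WT samples, the differences were -0.997 for Hsd17b7, -1.33 for Mvd, -0.73 for Stard4, -0.44 for Fasn and 1.48 for Acss2, and the median of the 31 genes was -0.29. With both disputed arrays left out, 2 genes were called. Of the 14 further probes, 3 passed, all lower in KO. They were of Abcg1 (-1.72, limma adjusted p = 0.000651), Fdps (-1.28, limma adjusted p = 0.00269) and Nsdhl (-1.60, limma adjusted p = 0.0247). Their chosen probes differed by -0.79, -0.36 and 0.35.

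With erlotinib, 0 of the 31 genes passed in limma and 13 had an unadjusted p under 0.05, as 15.6% of all probes did, with 0.985% of probes passing. Scd2 differed by -1.81 ± 0.50 (SE; limma adjusted p = 0.0556), Cyp51 by -1.06 (limma adjusted p = 0.0633) and Tm7sf2, a sterol reductase, by -0.92 (limma adjusted p = 0.0821). Of the 14 further probes, 3 passed, all lower in KO. They were of Cyp51 (-1.29, limma adjusted p = 0.0272), Nsdhl (-1.72, limma adjusted p = 0.024) and Abcg1 (-1.62, limma adjusted p = 0.00942). The chosen probes of Nsdhl and Abcg1 differed by 0.23 and -0.68. The median of the 31 genes was -0.38 within run 5, of 3 KO and 3 WT samples, and -0.998 within run 6, of 1 and 2. In mock cells, 0 of the 31 genes passed between KO and WT in limma and 3 had an unadjusted p under 0.05, as 17.7% of all probes did, with 1.11% of probes passing. The median of the genes was -0.30, with 8 of 9 fatty acid genes below 0. KO mock and WT mock shared no run, so genotype and run cannot be told apart.

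The inhibitors alone asked what 2 hours of kinase block changed. In WT mock cells 0 of the 31 genes passed in limma with any compound, 0 had an unadjusted p under 0.05 (6.51%, 3.18% and 3.42% of all probes did, with AG1478, erlotinib and PD153035), and 0% of probes passed. The medians there were 0.00 with AG1478, -0.22 with erlotinib and -0.05 with PD153035, and the median reach of the 95% interval of a gene was 0.70 to either side.

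In WT ras cells, Mvd was the single gene of the 31 called by its chosen probe with AG1478, where 1.96% of probes passed and 0.906% were higher. It read 1.54, 2.35, 1.87, 2.72 and 1.99 with AG1478 and 0.19, 1.01, 1.41, 0.73 and 1.15 without. All samples with AG1478 lay above all without it, and the difference was 1.20 ± 0.30 (SE), with a limma adjusted p of 0.0267. The call was lost without WT ras replicates 1 or 5 or WT ras AG1478 replicates 2 or 5, with differences of 1.02 to 1.33 over all samples left out. It was also lost in a fit of these groups alone (limma adjusted p = 0.275) and with run as a random block (0.345), at a difference of 1.20 in both. Without replicate 3 of WT ras AG1478, 3 of the 31 genes were called. Of the 14 further probes, 1 passed with AG1478, the second of Abcg1 (1.15, limma adjusted p = 0.0435). The chosen Abcg1 probe differed by 0.67 (limma adjusted p = 0.283). Elovl6, which elongates saturated fatty acids, was lower over the mean of the 3 compounds in WT ras, by -1.01 ± 0.29 (SE; limma adjusted p = 0.0439), with 2.21% of probes passing and 0.813% lower. Its means were 1.20 ± 0.50 (SD, n = 5) without inhibitor and 0.26 ± 0.15, 0.09 ± 0.58 and 0.22 ± 0.33 (SD, n = 5 each) with AG1478, erlotinib and PD153035. The Elovl6 call was lost without any 1 of 12 of the 20 samples: WT ras replicates 1, 2, 3 and 5, AG1478 replicates 1 and 2, erlotinib replicates 1, 3 and 4, and PD153035 replicates 1, 2 and 3. Its differences then were -1.17 to -0.86 over all samples left out. It was also lost under 5 other settings, with differences of -1.14 to -0.98 and limma adjusted p-values of 0.0515 to 0.308. The second Abcg1 probe was higher over the mean of the 3 compounds by 0.94 (limma adjusted p = 0.0391). Its chosen probe differed by 0.31 (limma adjusted p = 0.594). With erlotinib 0 of the 31 passed in limma (3.41% of probes did), with 8 at an unadjusted p under 0.05, against 18.3% of all probes. Of the 14 further probes, 1 passed with erlotinib. With PD153035 also 0 passed in limma (0.66% of probes did), with 6 at an unadjusted p under 0.05, against 12.2% of all probes. WT ras with and without inhibitor shared no run, so inhibitor and run cannot be told apart.

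In KO ras cells, which lack the receptor, PD153035 gave 3 lower and 1 higher gene of the 31, with 4.82% of probes passing, 2.24% lower and 2.58% higher. Scd2 read -0.17, 0.35, 0.65, 0.57 and -1.56 without inhibitor against the values of -2.59 to -1.56 given above. The lowest KO ras sample came to the level of the highest sample with PD153035, and the difference was -2.21 ± 0.47 (SE), with a limma adjusted p of 0.00529. Acaca differed by -1.01 (limma adjusted p = 0.0275), Mvd by -0.99 (limma adjusted p = 0.0449) and Acss2 by 1.22 (limma adjusted p = 0.036). The Scd2 call was kept with any 1 sample left out. Acaca and Acss2 each lost it without any 1 of replicates 1, 2 and 3 of KO ras and 1, 2, 3 and 5 of KO ras PD153035, and Mvd also without KO ras replicates 4 or 5. The second Acss2 probe differed by -1.105 (limma adjusted p = 0.233), and averaging the 2 probes gave 0.0562 (limma adjusted p = 0.94). These groups shared no run, so PD153035 and run cannot be told apart, and with run as a random block 0 of the 4 passed. Beside these values, 17 of 23 keratinocyte genes were below 0 with a median of -0.72 and 2 called lower, and all 7 melanocyte genes were below 0 with a median of -0.80, and their part in the result was not tested. With AG1478 and with erlotinib, 0 of the 31 genes passed in limma in KO ras, with 0.229% and 0.0543% of probes passing. At an unadjusted p under 0.05 there were 3 and 5 of the 31, against 14.1% and 11.8% of all probes. For the mean of the 3 compounds in KO ras 0 passed in limma, with 0.25% of probes passing, and 3 were at an unadjusted p under 0.05, against 16.6% of all probes. With AG1478 and erlotinib, Idi1 differed by 1.05 and 1.56, Cyp51 by 0.72 and 0.79, and Acss2 by 1.16 and 1.21. These are values of the chosen probes, and the 2 Acss2 probes had opposite signs with PD153035, as given above.

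The difference between genotypes in the response to PD153035 was tested as an interaction. Its median over the 31 genes was -0.39, 0 of them passed in limma, with 0.0933% of probes passing, and 6 had an unadjusted p under 0.05, against 10.1% of all probes. Dhcr7 came nearest, at -2.22 ± 0.55 (SE; limma adjusted p = 0.0892). It differed by 1.10 with PD153035 in WT ras, which did not pass (limma adjusted p = 0.188). For AG1478, erlotinib and the mean of the compounds, the interaction was called for 0 of the 31 genes in limma, with 0.874%, 0.0653% and 0.186% of probes passing. At an unadjusted p under 0.05 there were 6, 4 and 5 of the 31, against 16.9%, 11.3% and 14.3% of all probes.

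The 3 inhibitors were compared at the same dose and time in 9 pairs, with p-values adjusted over all pairs and probes. All are anilinoquinazolines. AG1478 and PD153035 differ in the halogen of the aniline ring, chlorine in AG1478 and bromine in PD153035, while erlotinib has an ethynyl group there and longer ether chains on the quinazoline. In KO ras, which lacks the target receptor, each called difference set PD153035 against another compound. Scd2 was higher with AG1478 than with PD153035 by 2.53 (95% interval 1.62 to 3.43; limma adjusted p = 0.00187), with 0.645% of probes passing in this pair and 0.455% higher. Both groups lay in run 8, and the call was kept with any 1 sample left out. In this pair Mvd (1.21; limma adjusted p = 0.0306) and Acly (1.01; limma adjusted p = 0.0441) were also higher with AG1478. Mvd lost its call without KO ras AG1478 replicates 1, 4 or 6, and Acly without these, AG1478 replicate 2, or PD153035 replicates 3 or 5. With run as a random block both were lost (limma adjusted p = 0.0885 and 0.0867), while Scd2 kept its call. The Mvd call was also lost with both disputed arrays left out (limma adjusted p = 0.0503). The Acly call was also lost without the dye term (limma adjusted p = 0.0562) and with run as a fixed block (limma adjusted p = 0.0522). By the labelled dye order of the 2 disputed arrays, 9 genes were called, and without PD153035 replicate 4, 6 were.

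Against erlotinib in KO ras, 4 of the 31 genes were lower with PD153035, with 2.09% of probes passing and 1.36% lower with PD153035. Erlotinib minus PD153035 was 1.52 for Mvd (limma adjusted p = 0.0122), 1.36 for Acaca (limma adjusted p = 0.0159), 2.08 for Idi1 (limma adjusted p = 0.0343) and 1.99 for Scd2 (limma adjusted p = 0.0439). Of the 14 further probes, 1 also passed in this pair. Mvd kept the call with any 1 sample left out. Acaca lost it without KO ras erlotinib replicate 1, at 0.88, Idi1 without erlotinib replicates 1, 2 or 3, and Scd2 without 2 or 3. Without erlotinib replicate 4, 10 genes were called. These groups shared no run, so compound and run cannot be told apart, and with run as a random block 0 of the 4 passed, at differences of 1.3975 for Mvd, 1.35 for Acaca, 1.45 for Idi1 and 1.70 for Scd2 and limma adjusted p-values of 0.369, 0.246, 0.723 and 0.578. In erlotinib minus PD153035, 18 of 23 keratinocyte genes were above 0 with a median of 0.50 and 3 called higher, all 7 melanocyte genes were above 0 with a median of 0.75, and all 7 endothelial genes were below 0 with a median of -0.70. In AG1478 minus PD153035 the medians of these lists were 0.52, 0.72 and -0.59. The part of these differences in the results was not tested. AG1478 minus erlotinib in KO ras passed for 0 of the 31 in limma, with 0.348% of probes passing, and 2 genes were at an unadjusted p under 0.05, against 11.9% of all probes. Their difference for Scd2 was 0.54 (95% interval -0.424 to 1.504) and for Dhcr7 0.04 (95% interval -0.75 to 0.83), which leaves room for changes of up to these bounds.

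In WT ras, AG1478 exceeded PD153035 for 2 of the 31 genes, with 0.775% of probes passing and 0.375% higher. The difference was 1.396 for Mvd (95% interval 0.79 to 2.00; limma adjusted p = 0.0147) and 1.98 for Hsd17b7 (95% interval 1.11 to 2.85; limma adjusted p = 0.0155). Within run 8, with 2 and 5 samples, these were 1.23 and 0.93. With run as a fixed block both calls were lost (limma adjusted p = 0.125 and 0.475), as with run as a random block (0.163 and 0.322). Mvd lost the call without WT ras PD153035 replicates 1, 2 or 4, and Hsd17b7 without PD153035 replicates 1 or 2 or AG1478 replicate 5. In the other 2 pairs of WT ras, 0 genes passed in limma, with 0.685% (AG1478 against erlotinib) and 0.287% (erlotinib against PD153035) of probes passing. At an unadjusted p under 0.05 there were 5 and 4 of the 31, against 13.5% and 9.04% of all probes. In the 3 pairs of WT mock 0 genes passed in limma, 0 had an unadjusted p under 0.05 (3.14%, 3.08% and 1.16% of all probes did), and 0%, 0.0108% and 0.00357% of probes passed.

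The effect of v-rasHa was not called for any of the 31 genes. In WT cells 28 of the 31 differences between ras and mock were above 0, with a median of 0.39 against 0.04 over all probes. In limma 0 genes passed, with 0.183% of probes passing, and 3 had an unadjusted p under 0.05, against 6.69% of all probes. Scd1 differed by 1.18, Fads2 by 1.11 and Mvd by 0.70, with limma adjusted p-values of 0.629, 0.684 and 0.7. The median was 0.59 within run 1, of 1 ras and 2 mock samples, and 0.24 within run 2, of 4 and 2. For run 1, 1 mock sample was the average of the arrays labelled repeat 1, which lay in runs 1 and 2. The value for run 1 was thus not wholly within the run. In KO cells the median was 0.08, with 18 of 31 above 0, 0 passing in limma and 0.539% of probes passing, and 1 was at an unadjusted p under 0.05, against 6.80% of all probes. The difference between genotypes in the ras effect was called for 0 of the 31 in limma, with 0.0108% of probes passing, and 2 were at an unadjusted p under 0.05, against 5.91% of all probes.

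Correlations between genes within groups describe how samples of a group vary. Over 62 samples, after each group's mean was taken off, the mean correlation between pairs of genes was 0.13 for 30 of the 31 genes, 0.28 for 10 sterol arm genes and 0.01 for all 19386 probes with a value in every sample. Msmo1 was most like the others, with a correlation of 0.79 to the mean of 15 other mevalonate and sterol genes. Pmvk (0.64), Stard4 (0.58) and Dhcr7 (0.58) followed. The chosen Fdps probe ran opposite, at -0.36, and Abca1 (-0.03), Fads2 (-0.03) and Acss2 (0.02) had correlations near 0. These are descriptions, since samples share runs and the reference RNA.

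Other genes of sterol and fatty acid handling were taken from a list of 47, of which 39 were measured. In KO against WT ras with PD153035, 1 of the 39 was called, Acsl4, an acyl-CoA synthetase of long polyunsaturated fatty acids, at -1.42 ± 0.34 (SE; limma adjusted p = 0.0172). The 39 had a median of -0.21 there with 27 below 0, against -0.91 and 28 of 31 for the synthesis genes. Mylip, a ubiquitin ligase that responds to sterols, was higher in KO mock by 1.66 (limma adjusted p = 0.0256) and in KO ras by 1.19 (limma adjusted p = 0.0427). Tecr was also higher in KO mock (1.30, limma adjusted p = 0.0296) and Ggps1 in KO ras (0.91, limma adjusted p = 0.0486). Of the 39, 0 were called lower in either comparison, where 1.11% and 1.93% of probes passed. Apoe, the lipid carrier apolipoprotein E, was higher in WT ras with erlotinib by 2.01 (limma adjusted p = 0.022) and with PD153035 by 2.33 (limma adjusted p = 0.0166). With AG1478 its mean was -3.75, against -3.42 without inhibitor, and it was not called. Npc1 (1.02, limma adjusted p = 0.0464) and Scd3 (1.12, limma adjusted p = 0.0254) were also higher with erlotinib. Acsl5 was lower in WT ras with AG1478 (-1.29, limma adjusted p = 0.0466). With erlotinib, PD153035 and AG1478, 3.41%, 0.66% and 1.96% of probes passed. The groups behind the Mylip, Tecr, Ggps1, Apoe, Npc1, Scd3 and Acsl5 values above shared no run, so run cannot be told apart there. Aacs was also lower in KO against WT ras with AG1478 (-0.99). In WT ras, Apoe was called in AG1478 minus erlotinib (-2.34) and AG1478 minus PD153035 (-2.66). In KO ras, Acsl4 was called in AG1478 minus erlotinib (-1.38), and Npc2 (0.95) and Tecr (1.06) in AG1478 minus PD153035. Erlotinib minus PD153035 there was 2.51 for Acsl4 and 1.47 for Npc2, both called. No pair with erlotinib shared a run.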

How the data were processed

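The members of the gene list, the other gene lists and the tests were chosen with earlier results of these data known. The deposited table holds the authors' log2 ratio per probe and array, 1 value for each of 28049 probes (base assumed; its scaling, background correction and centring are not given in the sources used here). Array medians lay between -0.07 and 0.07, and arrays held 24860 to 28047 values; the number of arrays per group limits the precision. The direction of each array was set so that it correlated positively with the median of the forward-labelled arrays, since 12 arrays were labelled with the dyes reversed. The label went against this sign for 2 arrays of KO ras with AG1478. The WT mock arrays labelled repeat 1, a forward and a reversed dye (r = 0.83), were averaged, which left 62 samples. The highest correlation of any other pair of WT mock arrays was 0.90. The averaged arrays lay in runs 1 and 2, and whether they are of 1 culture rests on the label. Genes were named from the platform annotation: 20925 probes have 1 symbol, 159 several and 6965 none. Per gene, the probe with most values was used, and of equal probes the lower ID. Some of the members called are described by sample, and the other members by group means, differences, counts or ranges.

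limma 3.58.1 (R 4.3.3) was fitted to all 13 groups at once with a term for dye order, on probes with values on at least 60% of the arrays of each group compared. P-values were adjusted by the Benjamini-Hochberg method over all probes of a comparison, and over all 9 compound pairs together, with a threshold of 0.05. The fit was tested on simulated data. Experiment numbers further than 100 apart were taken as separate runs, which is a reading of the numbers and not a stated batch. Each result was refitted under other signs, scalings, filters, probe rules and blocks, and without each sample in turn. Acat1, Soat1, Nr1h2 and some other genes of the pathway are not reported here.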

Additional observations from a re-analysis of the deposited data

Results flagged for a closer look

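In 12 of 216 groups of 4 to 6 values checked, 1 sample lay far from the others by the ratio of its gap to the range of the group, which chance gives in about 1 of 20 groups. In WT ras with AG1478, replicate 3 was the low sample for 3 genes of sterol synthesis: Hsd17b7 at 0.22 with the nearest sample at 2.85, Msmo1 at 0.79 with the nearest at 2.98, and Idi1 at 1.12. Abca1 was high in WT mock with PD153035 replicate 5 at 0.39 and in WT ras replicate 3 at -0.14. Acaca was high in KO ras with PD153035 replicate 4 at -0.26, Acly in WT ras with PD153035 replicate 2 at 0.86, and Hsd17b7 in WT ras with PD153035 replicate 5 at 1.68. Acss2 was low in WT ras with erlotinib replicate 2 at -0.47 and Mvd in WT ras with erlotinib replicate 1 at 0.21. In KO ras with erlotinib, replicate 4 was low for Hsd17b7 at -0.20 and for Scd1 at -4.40. The samples for Acaca and for both genes of KO ras with erlotinib are 3 values from arrays with the dyes reversed, and 11 of the 62 samples had that order.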

How the results depend on the processing

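The count of called genes among the 31 was 11 in KO against WT ras with PD153035 and stayed within 1.5 times of that under every setting run. Other counts moved, and the cause was not tested. KO against WT ras gave 0 in a fit of only the groups compared, 2 with probes averaged and 0 with run as a random block. AG1478 in WT ras gave 0 in a fit of only the groups compared and 0 with the random block. Erlotinib in WT ras gave 1 with each array centred, 1 with complete probes, 1 with probes averaged and 1 with the replicate block. The mean of the inhibitors in WT ras gave 0 without the dye term, after quantile normalization, in only the groups compared, with the random run and with the replicate block. AG1478 in KO ras gave 1 with the labelled dye order and 1 after quantile normalization. PD153035 in KO ras gave 8 after quantile normalization, 1 in only the groups compared and 0 with the random block. The mean of the inhibitors in KO ras gave 1 without the disputed arrays, 1 after quantile normalization and 1 with complete probes. KO against WT ras with AG1478 gave 2 without the disputed arrays, 1 in only the groups compared, 1 with run fixed, 1 with run random and 3 with the replicate block. KO against WT ras with erlotinib gave 2 with probes averaged, 2 with run fixed, 2 with run random and 1 with the replicate block. The interactions of AG1478 and of PD153035 each gave 1 after quantile normalization. AG1478 minus PD153035 in WT ras gave 1 with run fixed and 0 with run random. AG1478 minus erlotinib in KO ras gave 1 with the labelled dye order. AG1478 minus PD153035 in KO ras gave 9 with it, 5 with run fixed and 1 with run random, and erlotinib minus PD153035 in KO ras gave 0 with run random.

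With 1 sample left out, the counts ran from 9 to 12 for KO against WT ras with PD153035, 2 to 7 with AG1478 and 0 to 1 with erlotinib. They ran from 0 to 3 for AG1478 in WT ras, 0 to 1 for erlotinib in WT ras and 0 to 3 for the mean there. They ran from 0 to 1 for AG1478, 0 to 2 for erlotinib, 1 to 6 for PD153035 and 0 to 1 for the mean in KO ras, and 0 to 1 for the ras effect in KO and for the AG1478 and PD153035 interactions. Among the pairs they ran from 0 to 1 for AG1478 minus erlotinib and 0 to 3 for AG1478 minus PD153035 in WT ras, and 1 to 6 for AG1478 minus PD153035 and 2 to 10 for erlotinib minus PD153035 in KO ras. No value of a called gene changed sign. Called genes kept the call in 210 of 262 other settings and 237 of 334 fits without a sample.

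Whether replicate numbers pair the samples was not settled. Same-numbered samples of different groups correlated from -0.54 to 0.70 (median 0.02), and differently numbered ones had a median of -0.01. The best correlation of 25 of 62 samples was with their own number, and the share expected without pairing was not computed. The replicate block was run as an alternative, with the counts given above. The number of arrays, 3 to 6 a group, limits what could be detected.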
